A study of Drosophila melanogaster with 18 samples.

Results

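Atpalpha, nrv1, nrv2, nrv3, Ndae1 and Nha1 encode the sodium pump of Drosophila melanogaster and 2 transporters grouped with it as sodium exchangers. These 6 genes were followed across 18 libraries of ovarian poly-A RNA. They are 6 of the 17611 genes in the count table and 6 of the 9037 that passed a filter on low counts, so no gene of the set was lost to the filter. The set was chosen on measured values of these same libraries: nrv3 for its excess in ovaries kept at 12 °C in both lines, and Ndae1 and Nha1 for their change in diapause. Fold changes within a line are therefore given as a description, with a standard error (SE) and no p-value. Comparisons of LP with HP in the same state were not themselves used in the choice and were tested. For nrv3, Ndae1 and Nha1 they draw on the same groups whose values led to the choice. Their p-values are therefore not independent of it.

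The flies belonged to 2 inbred lines that the labels call wild type, LP (low plasticity) and HP (high plasticity). Each line gave diapause ovaries from 12 °C, ovaries of flies that stayed reproductive at 12 °C, and age-control ovaries of flies aged 28 days at 25 °C, with 3 libraries in each of the 6 groups. Diapause is an arrest of egg production. Each line is a single inbred genotype, so a difference between LP and HP is one between 2 genotypes. Temperature differs between the age controls and the other groups, and no age is stated for the flies at 12 °C, so temperature, age and reproductive state cannot be told apart in any comparison with the age controls. Diapause against reproductive ovaries is a comparison at 1 temperature. All groups share the tissue given in the labels, ovary stages 1 to 7. The libraries are of bulk tissue, in which fewer cells of a type and less RNA per cell cannot be told apart.

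The sodium pump uses ATP to export sodium and import potassium, and the gradients it builds drive most other transport across the cell membrane. It is an assembly of a catalytic alpha subunit, encoded by Atpalpha, with a glycosylated beta subunit that the alpha subunit needs to fold and to reach the membrane. In Drosophila the beta subunits are encoded by the nervana genes nrv1, nrv2 and nrv3. Atpalpha and nrv2 are also needed for septate junctions, the barrier between epithelial cells, and nrv3 is best known from neurons. Ndae1 is a sodium-driven anion exchanger, which brings in sodium and bicarbonate in exchange for chloride and so raises the pH of the cell. Nha1 belongs to the cation/proton antiporter superfamily, and its place here among sodium exchangers rests on that family.

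Total counts ranged from 14352846 to 21343992 per library. The germline markers were present in all libraries, with summed levels of 2579 to 4132 CPM, which are counts set against library sizes that TMM scaling has adjusted so that most genes are level between libraries. Eggshell genes, which belong to egg chambers of later stages than the labelled ones, were present as well. The 16 eggshell markers summed to 1124 to 2788 CPM in LP diapause, 3564 to 4721 CPM in LP reproductive and 9400 to 13000 CPM in LP age-control libraries. In HP they summed to 306 to 406 CPM in diapause, 1137 to 1998 CPM in reproductive and 4705 to 9067 CPM in age-control libraries. The 20 muscle markers ran the other way in HP, with 2177 to 2411 CPM in diapause, 1814 to 1923 CPM in reproductive and 767.5 to 903.0 CPM in age-control libraries, and in LP with 1934 to 2298, 1340 to 1740 and 1251 to 1486 CPM in the same 3 states. The 14 haemocyte markers summed to 1826 to 2419, 1677 to 1739 and 638 to 809 CPM in LP and to 2275 to 2763, 2094 to 2353 and 1070 to 1284 CPM in HP, again from diapause through reproductive to age control. Most of that sum was the collagen genes vkg and Col4a1, with means of 694 and 1087 CPM in LP diapause against 190 and 224 CPM in LP age controls, and 807 and 1285 CPM in HP diapause against 361 and 477.5 CPM in HP age controls. The haemocyte gene Hml averaged 2.19 CPM in LP diapause against 2.425 CPM in LP age controls, and 3.52 CPM in HP diapause against 1.06 CPM in HP age controls. He was at or near 0 in all 6 groups. The part of these cell types in the results below was not tested. HP diapause replicate 2 was the lowest library of its group for 5 of the 6 genes, and LP diapause replicate 2 had the highest eggshell sum of its group.

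Atpalpha (FBgn0002921) lies on chromosome 3R, 20948714 to 20976239, plus strand, in the coordinates of the count table, which match the Ensembl BDGP6.54 annotation for all 6 genes. The other 5 lie on chromosome 2L. On the minus strand, nrv1 (FBgn0015776, 6778555 to 6786861) and nrv2 (FBgn0015777, 6789770 to 6798862) are neighbours 2.91 kb apart. Nha1 (FBgn0031865, 6860905 to 6870389) begins 62.0 kb beyond nrv2, and Ndae1 (FBgn0259111, 7223328 to 7249343) a further 353 kb on. On the plus strand, nrv3 (FBgn0032946, 21380000 to 21393319) stands far from the others. Ndae1 has CG43800 and CG43799 inside its span, and transposon entries overlap nrv3 and Ndae1. None of the 6 genes shares an exon base with another annotated gene.

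**Figure D1:**
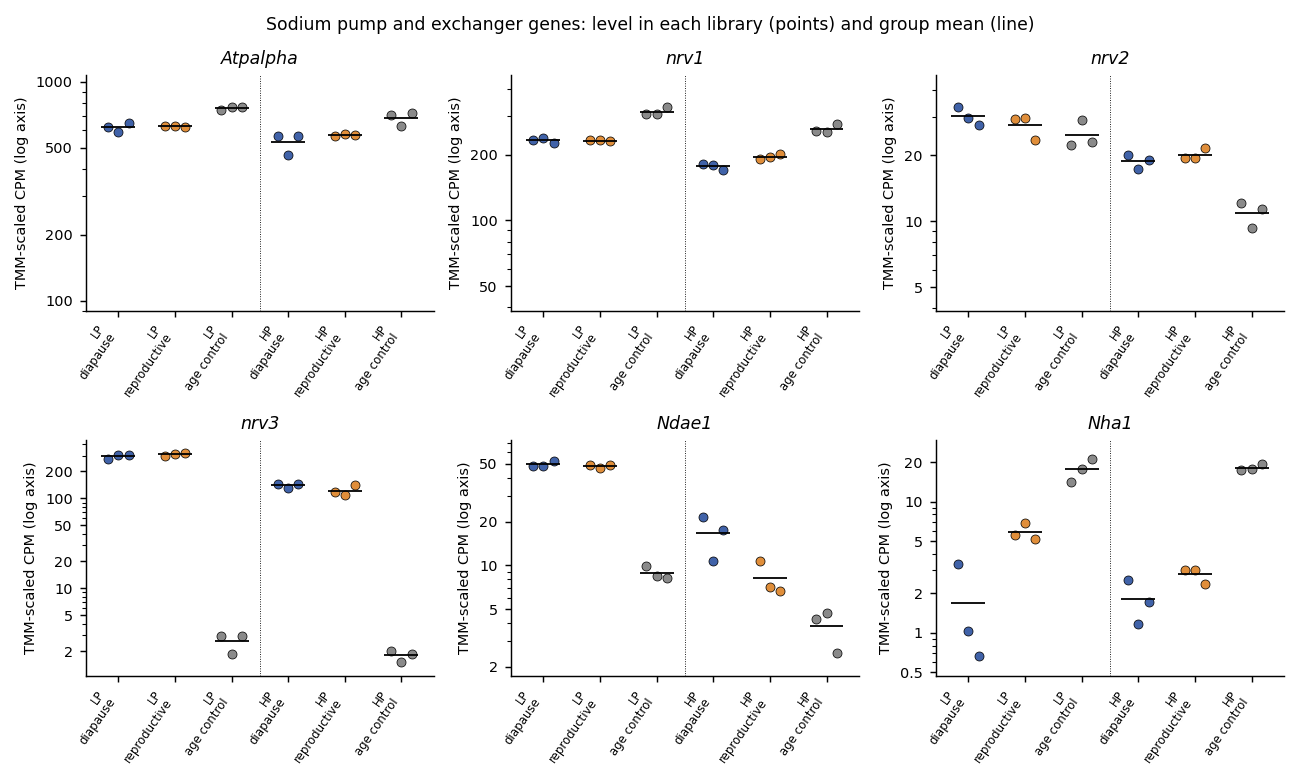
Levels of the 6 genes in each of the 18 libraries, in TMM-scaled CPM on log axes, with diapause in blue, reproductive in orange and age control in grey; LP groups are left of the dotted line and HP groups right of it, and the black line is the group mean. nrv3 is at 108 CPM or more in every 12 °C library and below 3 CPM in every age control, while Nha1 is highest in the age controls of both lines.

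The catalytic subunit gene Atpalpha was the most abundant of the 6 in CPM and lay somewhat lower at 12 °C in both lines. It had 622, 589 and 645 CPM in LP diapause ovaries, 626, 625 and 622 CPM in LP reproductive ovaries and 743, 769 and 770.5 CPM in LP age controls. It had 563.5, 460.5 and 563 CPM in HP diapause ovaries, 567, 577 and 572 CPM in HP reproductive ovaries and 707, 627 and 717 CPM in HP age controls. In both lines every 12 °C library lay below every age-control library. The log2 fold change of diapause against age control was −0.30 in LP (SE 0.07) and −0.37 in HP (SE 0.07). Reproductive against age control gave −0.28 in LP and −0.26 in HP (SE 0.07 each). Diapause differed from reproductive ovaries by −0.01 in LP and by −0.11 in HP (SE 0.07 each). In HP diapause the spread came from replicate 2, and without it the HP difference was −0.02.

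The order of the Atpalpha levels, high to low, was LP age control, HP age control, LP reproductive, LP diapause, HP reproductive and HP diapause. LP reproductive and LP diapause overlapped, and no other neighbours in that order did.

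The nrv1 gene had the highest level per kilobase of the 3 beta subunit genes in every library, and like Atpalpha it was lower at 12 °C. It had 233, 237 and 226 CPM in LP diapause ovaries, 233, 232 and 229.5 CPM in LP reproductive ovaries and 306, 306 and 332 CPM in LP age controls. In HP it had 181, 180 and 170.5 CPM in diapause, 191, 194.5 and 201 CPM in reproductive and 257, 254.5 and 275 CPM in age-control ovaries. Again no 12 °C library reached the level of an age control of its line. Diapause against age control gave −0.44 in LP and −0.57 in HP (log2 fold change, SE 0.05 each), and reproductive against age control gave −0.44 in LP and −0.42 in HP. Diapause against reproductive gave 0.00 in LP and −0.14 in HP (SE 0.05 each). From high to low the groups ran LP age control, HP age control, LP diapause, LP reproductive, HP reproductive and HP diapause, and only the 12 °C groups of LP overlapped their neighbour.

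The nrv2 gene, whose product also serves in septate junctions, was a minor beta subunit transcript that differed between states mainly in HP. It had 33.5, 29.6 and 27.7 CPM in LP diapause ovaries, 29.3, 29.7 and 23.45 CPM in LP reproductive ovaries and 22.2, 29.0 and 23.1 CPM in LP age controls. These groups overlapped, with LP age-control replicate 2 inside the range of the diapause libraries. In HP it had 20.2, 17.4 and 19.0 CPM in diapause, 19.5, 19.4 and 21.6 CPM in reproductive and 12.1, 9.28 and 11.3 CPM in age-control ovaries, with no overlap between the 12 °C and the age-control libraries. Diapause against age control gave 0.29 in LP (SE 0.12) and 0.79 in HP (SE 0.13). The LP value was 0.06 with total counts as library sizes, and the ratio of the LP means was −0.10 on the log2 scale in TPM, so its direction rests on the scaling. Reproductive against age control gave 0.15 in LP (SE 0.12; −0.16 as the log2 ratio of means in TPM) and 0.89 in HP (SE 0.13), and diapause against reproductive gave 0.14 in LP and −0.09 in HP (SE 0.12 each).

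From high to low, nrv2 ran LP diapause, LP reproductive, LP age control, HP reproductive, HP diapause and HP age control. The 3 LP groups overlapped in turn, as did the 12 °C groups of HP. Every LP library was above every HP library.

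The nrv3 gene had by far the widest range of the 6. It had 274, 304 and 302 CPM in LP diapause ovaries, 297, 309.9 and 320.3 CPM in LP reproductive ovaries and 2.95, 1.88 and 2.98 CPM in LP age controls. In HP it had 143.5, 131 and 144 CPM in diapause, 116.5, 108 and 142 CPM in reproductive and 2.00, 1.52 and 1.87 CPM in age-control ovaries. The age-control values rest on 33 to 72 counts per library, and the 12 °C values on 1783 to 6214. Diapause against age control was 112-fold in LP (log2 fold change 6.81, SE 0.13) and 77.7-fold in HP (6.28, SE 0.14). Reproductive against age control was 118-fold in LP (6.88, SE 0.13) and 67.8-fold in HP (6.08, SE 0.14). Ranked by increase over the age controls among the 9037 genes, nrv3 stood at 2 in both LP comparisons, at 4 in HP diapause and at 6 in HP reproductive ovaries.

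At 1 temperature nrv3 hardly differed between states. Diapause against reproductive gave −0.08 in LP and 0.20 in HP (log2 fold change, SE 0.09 each), and the diapause and reproductive libraries overlapped in both lines. From high to low the groups ran LP reproductive, LP diapause, HP diapause, HP reproductive, LP age control and HP age control. The 12 °C groups overlapped within each line and the age controls overlapped between the lines, with gaps between LP and HP at 12 °C and between all 12 °C libraries and the age controls.

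Genes beside nrv3 on chromosome 2L did not share this range. Of the 4 nearest tested genes before it, Mondo, crc, Tsp39D and dtr, the log2 fold change of diapause against age control was 0.89, 0.12, −0.12 and 0.37 in LP and 0.41, 0.01, −0.43 and −0.24 in HP. The nearest of them, dtr, ends 12.7 kb before nrv3. Beyond nrv3 the tested genes begin 144 kb away at the histone cluster, whose near-identical copies make their counts uncertain. Lamp1, 180.1 kb away, gave −0.54 in LP and −0.35 in HP.

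Because nrv3 is known from neurons, the 13 neuronal markers were read beside it. They summed to 65.3 to 82.4 CPM in LP diapause, 52.3 to 60.25 CPM in LP reproductive and 39.4 to 48.7 CPM in LP age-control libraries, and to 63.4 to 81.2, 64.8 to 76.0 and 41.2 to 58.5 CPM in the same states of HP. The cadherin gene CadN averaged 51.7 CPM in LP diapause, 39.5 CPM in LP reproductive and 12.2 CPM in LP age controls, and 43.6, 43.2 and 31.5 CPM in the same states of HP. The RNA-binding protein gene elav averaged 3.65 CPM in LP diapause against 1.77 CPM in LP age controls, and 4.19 CPM in HP diapause against 2.88 CPM in HP age controls. The transporter gene Vmat averaged 7.49 CPM in LP diapause against 19.5 CPM in LP age controls, and 9.39 CPM in HP diapause against 2.26 CPM in HP age controls. In both lines the means of CadN and elav were thus higher in diapause than in age controls, while that of Vmat was lower in LP and higher in HP. Appl, with means of 1.68 to 5.86 CPM over the 6 groups, was also higher in diapause than in age controls of both lines. The mean of cac was lower in diapause in both lines. It was 4.68 CPM in LP diapause against 7.36 CPM in LP age controls, and 7.89 CPM in HP diapause against 10.4 CPM in HP age controls. The other 8 markers, among them the synaptic genes nSyb, Syt1, brp and Syn, averaged below 1 CPM in each group. The 7 glial markers summed to 24.2 to 26.7 CPM in LP diapause against 22.8 to 26.2 CPM in LP age controls, and to 21.6 to 25.8 CPM in HP diapause against 14.3 to 19.5 CPM in HP age controls. Most of it was moody and Gs2, and repo, which defines glia, averaged at most 0.0582 CPM in any group. The part of neurons and glia in the nrv3 values was not tested.

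Counted per kilobase, so that genes can be set beside each other, the pump transcripts of age-control ovaries were almost wholly Atpalpha and nrv1. In RPKM, which is the CPM divided by the deposited gene length in kilobases, LP age controls had 114 ± 2.25 for Atpalpha, 143 ± 6.81 for nrv1, 6.94 ± 1.03 for nrv2 and 0.545 ± 0.131 for nrv3, and HP age controls had 102 ± 7.33, 119 ± 5.16, 3.05 ± 0.404 and 0.376 ± 0.0526 for the same genes (SD, n = 3). In LP diapause the values were 92.6 ± 4.24 for Atpalpha, 106 ± 2.46 for nrv1, 8.48 ± 0.825 for nrv2 and 61.5 ± 3.58 for nrv3. In HP diapause they were 79.2 ± 8.9, 80.7 ± 2.61, 5.28 ± 0.393 and 29.3 ± 1.55. The lowest gene of the 6 per kilobase was nrv3 in the age controls of both lines and Nha1 in diapause ovaries of both lines. In HP age controls the nrv3 and Ndae1 libraries overlapped.

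The make-up of the beta subunit transcripts therefore differed between the temperatures in both lines. The share of nrv3 in the summed RPKM of nrv1, nrv2 and nrv3 was 35.0% ± 1.62 in LP diapause, 36.4% ± 1.20 in LP reproductive and 0.361% ± 0.0832 in LP age-control ovaries. In HP it was 25.4% ± 1.34 in diapause, 21.2% ± 2.01 in reproductive and 0.306% ± 0.0401 in age-control ovaries (SD, n = 3 each). The share of nrv1 was 60.2%, 59.3% and 95.0% in those LP states and 70.0%, 74.1% and 97.2% in those HP states. The share of nrv2 stayed between 2.19% and 5.49% in all 18 libraries. These shares do not depend on how libraries are scaled, since all 3 genes of a library share 1 scaling factor.

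The summed beta level was 176 ± 3.87 RPKM in LP diapause, 178 ± 1.23 in LP reproductive and 151 ± 6.52 in LP age-control ovaries. In HP it was 115.3 ± 2.52, 120.3 ± 6.01 and 123 ± 5.37 RPKM in the same states, and the diapause libraries (113 to 118 RPKM) lay below the age controls (119 to 129 RPKM). In TPM the LP order turned, with 280 ± 8.37 in diapause, 298 ± 2.21 in reproductive and 314 ± 27.7 in age-control ovaries, while HP kept its order, with 184 ± 8.09, 206 ± 10.1 and 238 ± 24.1 TPM (SD, n = 3 each). The direction in LP therefore rests on the scaling. The ratio of summed beta to Atpalpha was 1.90 ± 0.126 in LP diapause, 1.90 ± 0.0170 in LP reproductive and 1.32 ± 0.0448 in LP age controls. It was 1.47 ± 0.168 in HP diapause, 1.41 ± 0.0726 in HP reproductive and 1.20 ± 0.0620 in HP age controls. The ratio was higher in LP than in HP by 0.435 in diapause, by 0.499 in reproductive and by 0.12 in age-control ovaries, with every LP library above every HP library of its state. The exact 2-sided permutation p was 0.1 in each of the 3 states (0.1 adjusted over them). This is the smallest p that 3 against 3 libraries can give, so no outcome could pass 0.05. The test therefore cannot decide whether the ratio differs between the lines. The summed beta level also includes nrv3, which was chosen on values of these same libraries. These p-values are therefore not independent of that choice.

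**Figure D2:**
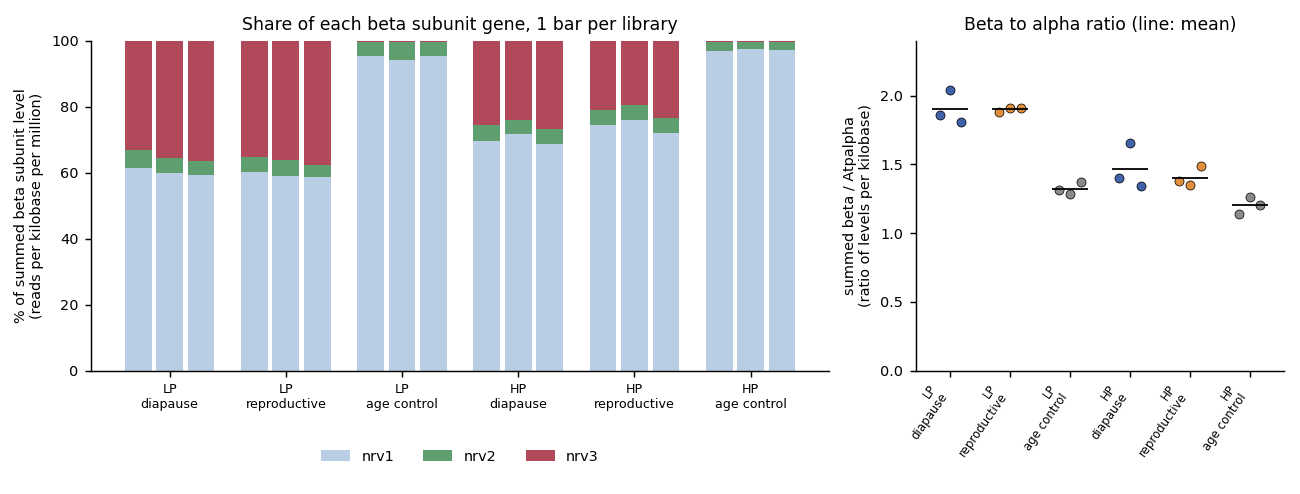
Left, share of nrv1, nrv2 and nrv3 in their summed RPKM, 1 stacked bar per library; right, ratio of the summed beta level to Atpalpha, with points for libraries, blue for diapause, orange for reproductive, grey for age control and a black line at the group mean. The nrv3 share is 19.4% to 37.7% in the 12 °C libraries and below 1% in the age controls, and the ratio is highest in the 12 °C groups of LP.

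Ndae1, the sodium-driven anion exchanger, was higher at 12 °C in both lines, and its diapause level stood above its reproductive level in HP. In LP it had 48.5, 48.1 and 52.4 CPM in diapause, 49.2, 46.9 and 48.8 CPM in reproductive and 9.90, 8.39 and 8.14 CPM in age-control ovaries. In HP it had 21.7, 10.7 and 17.5 CPM in diapause, 10.7, 7.12 and 6.62 CPM in reproductive and 4.24, 4.73 and 2.47 CPM in age-control ovaries. The LP groups at 12 °C were tight and overlapped, while the HP groups did not overlap, although HP diapause replicate 2 was barely above the highest HP reproductive library. Diapause against age control gave 2.50 in LP (log2 fold change, SE 0.22) and 2.13 in HP (SE 0.25). Reproductive against age control gave 2.46 in LP (SE 0.22) and 1.09 in HP (SE 0.26).

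Diapause against reproductive was 0.04 in LP (SE 0.20) and 1.04 in HP (SE 0.23) for Ndae1. The HP value ran between 0.81, without diapause replicate 1, and 1.29, without reproductive replicate 1. From high to low the groups ran LP diapause, LP reproductive, HP diapause, LP age control, HP reproductive and HP age control. LP diapause overlapped LP reproductive, and LP age control overlapped HP reproductive. Per kilobase, Ndae1 reached 7.04 ± 0.335 RPKM in LP diapause, close to the 8.48 of nrv2, and 2.36 ± 0.784 RPKM in HP diapause.

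Nha1, the gene of the cation/proton antiporter superfamily, was highest in the age controls of both lines. In LP it had 3.37, 1.04 and 0.672 CPM in diapause, 5.57, 6.84 and 5.21 CPM in reproductive and 14.0, 17.8 and 21.1 CPM in age-control ovaries. In HP it had 2.51, 1.18 and 1.71 CPM in diapause, 3.00, 3.00 and 2.37 CPM in reproductive and 17.4, 17.9 and 19.3 CPM in age-control ovaries. LP diapause replicate 1 stood above the other libraries of its group, and the 3 values rest on 11 to 65 counts. The 3 states of LP did not overlap, and in HP the diapause and reproductive libraries did. Diapause against age control gave −3.35 in LP and −3.31 in HP (log2 fold change, SE 0.35 each), that is 10.2-fold and 9.93-fold lower in diapause. Reproductive against age control gave −1.59 in LP (SE 0.30) and −2.70 in HP (SE 0.33).

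Diapause against reproductive was −1.76 in LP (SE 0.37) and −0.61 in HP (SE 0.40) for Nha1. Without LP diapause replicate 1 the LP value was −2.76, and that against the age controls was −4.36. From high to low the groups ran HP age control, LP age control, LP reproductive, HP reproductive, HP diapause and LP diapause. The age controls overlapped each other, and so did the 3 lowest groups in turn. The eggshell sums given above ran in the same order of states in each line. In LP diapause, however, replicate 2 had the highest eggshell sum, 2788 CPM against 1141 and 1124 CPM, while replicate 1 had the highest Nha1 level. The part of eggshell-forming cells in the Nha1 values was not tested.

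**Figure D3:**
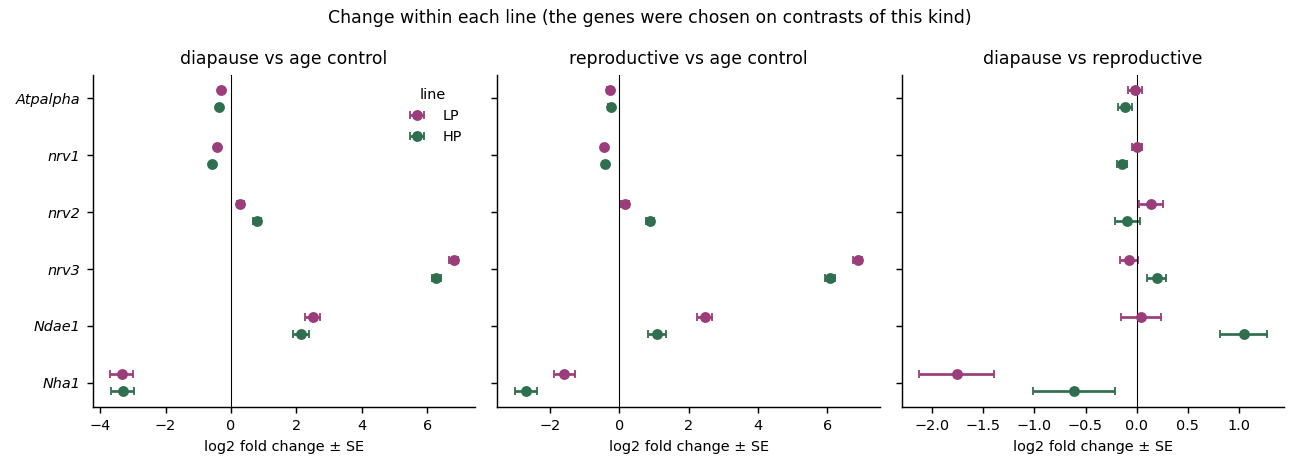
Log2 fold change with its SE for the 6 genes within each line, LP in purple above HP in green, for diapause against age control, reproductive against age control and diapause against reproductive; each panel has its own axis. The values against the age controls have the same sign in both lines for all 6 genes, although that of nrv2 in LP turned below 0 in TPM, and only Ndae1 in HP (1.04) and Nha1 in LP (−1.76) lie beyond 1 in diapause against reproductive.

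A gene was called at an adjusted p under 0.05 in edgeR's quasi-likelihood test, adjusted by the Benjamini-Hochberg method over the 9037 genes. By that rule diapause against age control called all 6 genes in each line, 3 higher and 3 lower, where 71.9% of all genes were called in LP (36.6% higher, 35.3% lower) and 68.6% in HP (34% higher, 34.7% lower). Reproductive against age control called 5 of the 6 in LP, all but nrv2, and 6 in HP, where 67.6% and 65.3% of all genes were called. Diapause against reproductive called Nha1 in LP, where 1.45% of all genes were called, and Ndae1 in HP, where 0.852% were. These contrasts served to choose the genes, so nothing is read from the counts.

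The lines differed in 5 of the 6 genes in each 12 °C state and in 4 of the 6 in the age controls, and every called difference was higher in LP. For comparison, 32.6% of all genes were called between the lines in diapause, 35.1% in reproductive and 41.9% in age-control ovaries, and 17.4%, 18.4% and 19.9% were called higher in LP in those states. Ndae1 had the largest line difference of the 6 in diapause, 2.96-fold (log2 fold change 1.57, SE 0.21, adjusted p = 2.89e-05), and in reproductive ovaries, 5.93-fold (2.57, SE 0.22, adjusted p = 2.37e-07). In the age controls it was 2.30-fold higher in LP (1.20, SE 0.25, adjusted p = 0.00117). The LP and HP libraries of Ndae1 did not overlap in any state. For nrv3, Ndae1 and Nha1 the p-values between the lines come from groups that also served to choose these genes.

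The beta subunit genes were also higher in LP. In diapause nrv3 was 2.10-fold higher in LP (log2 fold change 1.07, SE 0.09, adjusted p = 3.7e-08), and in reproductive ovaries it was 2.53-fold higher (1.34, SE 0.09, adjusted p = 1.78e-09). In the age controls, where its counts are lowest, it was 1.46-fold higher (0.54, SE 0.19, adjusted p = 0.0291), the lines overlapped, and the call was lost in 4 of the 6 fits that leave out a library. For nrv2 the difference was 0.68 in diapause (SE 0.12, adjusted p = 0.000182), 0.45 in reproductive (SE 0.12, adjusted p = 0.00634) and 1.19 in age-control ovaries (SE 0.12, adjusted p = 2.07e-07). The nrv1 difference was smaller, 0.39 in diapause (adjusted p = 3.02e-06), 0.24 in reproductive (adjusted p = 0.000544) and 0.26 in age-control ovaries (adjusted p = 0.000168; SE 0.05 each).

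Atpalpha was 1.17-fold higher in LP in diapause (log2 fold change 0.22, SE 0.07, adjusted p = 0.0151). That call was lost without HP diapause replicate 2 (0.13, adjusted p = 0.129), without LP diapause replicate 1 (adjusted p = 0.0515) and without LP diapause replicate 3 (adjusted p = 0.0829). In reproductive ovaries the difference was 0.13 (adjusted p = 0.156) and in age controls 0.15 (adjusted p = 0.074; SE 0.07 each), and neither passed the threshold although the libraries of the lines did not overlap. Nha1 was 2.10-fold higher in LP in reproductive ovaries (1.07, SE 0.34, adjusted p = 0.0235), a call lost in 4 of the 6 fits without a library. It gave −0.07 in diapause (SE 0.43, adjusted p = 0.916), −1.09 (adjusted p = 0.0204) without LP diapause replicate 1, and −0.04 in the age controls (SE 0.28, adjusted p = 0.926). Sequence differences between the lines can change how many reads of a gene are counted, and their part in these values was not tested.

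**Figure D4:**
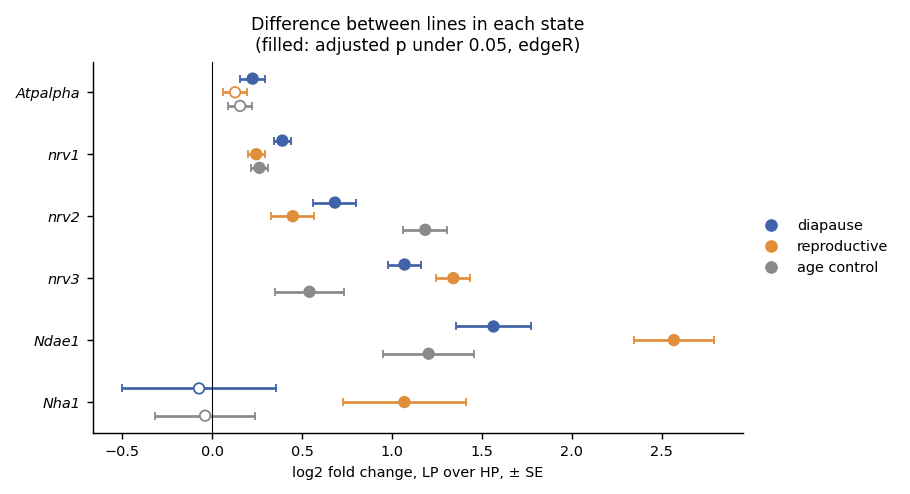
Log2 fold change of LP over HP with its SE for the 6 genes in diapause (blue), reproductive (orange) and age-control (grey) ovaries; filled points have an adjusted p under 0.05 in edgeR. All filled points lie right of 0, with Ndae1 in reproductive ovaries (2.57) farthest out, and Nha1 in diapause and in the age controls lies near 0.

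Whether the response itself differed between the lines was tested as the LP effect minus the HP effect for Atpalpha, nrv1 and nrv2. For nrv2 the difference was −0.74 in reproductive (SE 0.17, adjusted p = 0.00476) and −0.50 in diapause against age control (SE 0.17, adjusted p = 0.0462). For nrv1 it was 0.13 in diapause (SE 0.07, adjusted p = 0.206) and −0.02 in reproductive against age control (adjusted p = 0.897). For Atpalpha it was 0.07 (SE 0.10, adjusted p = 0.671) and −0.03 (adjusted p = 0.883). So 1 of these 3 genes, nrv2, was called in both, where 18.4% of all genes were called in diapause and 16.6% in reproductive against age control. The same difference is a description for the genes chosen on these changes. For nrv3 it was 0.53 in diapause and 0.80 in reproductive against age control (SE 0.22 each). For Ndae1 it was 0.36 (SE 0.33) and 1.36 (SE 0.34), and for Nha1 −0.03 (SE 0.51) and 1.11 (SE 0.44). These comparisons share the age controls. In diapause against reproductive ovaries, edgeR called 0 of the 9037 genes for a line difference, with 366 at an unadjusted p under 0.05, and DESeq2 called 6.

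The 3 named genes most like each of the 6 were taken by Pearson's r of log2 CPM over the 18 libraries, among 4828 genes with a symbol and a mean of at least 5 CPM. The points share the 6 groups, so the values only describe a like pattern over groups. Those of nrv3 were Sfxn1-3 (0.991), TTLL4A (0.990) and comt (0.987), the vesicle fusion ATPase. In LP diapause, reproductive and age-control ovaries, Sfxn1-3 had 96.9, 99.6 and 55.7 CPM and TTLL4A had 267, 262 and 176.5 CPM. In the same states comt had 85.4, 82.9 and 8.725 CPM. A high r thus does not mean a change of like size, and nrv3 had a wider range than these 3 genes. Those of Ndae1 were the snoRNA host gene Uhg2 (0.953), the prohibitin gene Phb2 (0.951) and Faf2 (0.948). Those of Nha1 were the octopamine receptor gene Oamb (0.957), Ilp8 (0.949) and Snrk (0.944). Those of nrv1 were Slmap (0.985), Gbs-70E (0.979) and the adherens junction gene alpha-Cat (0.976), and those of Atpalpha were sktl (0.947), hoe1 (0.944) and the Mediator subunit gene MED14 (0.943). Those of nrv2 were the tricellular junction gene Gli (0.950), GCS2alpha and pot (0.935 each). Among the 6 themselves r was 0.911 for Atpalpha with nrv1, 0.790 for nrv3 with Ndae1, 0.784 for nrv2 with Ndae1 and −0.837 for nrv3 with Nha1.

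Other genes of ion transport and of cell junctions, 104 in 10 lists, gave 83 tested genes. The lists were drawn up with results of these data known. Diapause against age control called 45 higher and 19 lower in LP (77.1% of the 83, with 71.9% of all genes) and 36 higher and 18 lower in HP (65.1%, with 68.6% of all genes). Their median log2 fold change was 0.235 in LP and 0.162 in HP, against 0.0258 and 0.00969 over all genes. With total counts as library sizes, which moved the median of all genes to −0.201 in LP and −0.133 in HP, the split was 27 higher and 31 lower in LP and 27 higher and 32 lower in HP. The counts of single lists stand beside 36.6% of all genes higher and 35.3% lower in LP, and 34% higher and 34.7% lower in HP. In what follows, rose and fell refer to diapause at 12 °C against age control at 25 °C. Diapause against reproductive called 0 of the 83 in LP and 2 in HP, Calx (−0.26, adjusted p = 0.0445) and the polarity gene l(2)gl (−0.28, adjusted p = 0.0425). The muscle sum and the collagen genes vkg and Col4a1, given above, were also higher in diapause than in age-control ovaries of both lines, and the part of such cells was not tested.

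The pump-like list had 1 tested gene, NKAIN, whose vertebrate relatives bind the pump. It rose by 0.38 in LP (SE 0.08, adjusted p = 0.000168) and by 0.48 in HP (SE 0.08, adjusted p = 1.22e-05), but the LP call was lost with total counts as library sizes (0.15). For NKAIN, reproductive against age control gave 0.35 in LP (adjusted p = 0.000487) and 0.51 in HP (adjusted p = 7.29e-06), and diapause against reproductive gave 0.03 in LP (adjusted p = 0.872) and −0.03 in HP (adjusted p = 0.901; SE 0.08 each). JYalpha, a paralogue of Atpalpha, did not pass the filter. Of 4 genes listed as sodium/proton exchangers, 2 rose and 0 fell in LP, and 1 rose and 1 fell in HP. With total counts as library sizes the counts were 1 and 1 in LP and 1 and 2 in HP. Nhe3 differed in direction, with 146 ± 7.53 CPM in LP diapause and 122 ± 2.42 CPM in LP age controls (0.26, SE 0.05, adjusted p = 0.000145), against 86.9 ± 3.20 CPM in HP diapause and 110.5 ± 2.65 CPM in HP age controls (−0.35, SE 0.05, adjusted p = 7.6e-06; SD, n = 3). The LP value of Nhe3 was 0.03 with total counts as library sizes. Of 5 bicarbonate and carbonic anhydrase genes, 1 rose and 1 fell in LP, and 2 rose and 1 fell in HP, or 1 and 3 in LP and 1 and 2 in HP with total counts. The carbonic anhydrase gene CAH7 fell by 0.40 in LP and by 0.61 in HP on the log2 scale (SE 0.06 each). CAH2 rose by 0.81 in LP (SE 0.08, adjusted p = 1.36e-08) and gave 0.10 in HP (SE 0.08, adjusted p = 0.263). Of 2 sodium/calcium exchangers tested, 1 fell in each line, Calx, by 0.61 in LP and 0.46 in HP (SE 0.06 each).

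Among 6 cation-chloride cotransporters and their kinases, 2 rose and 3 fell in LP, and 3 rose and 1 fell in HP. With total counts as library sizes 2 rose and 4 fell in LP, and 3 rose and 2 fell in HP. The potassium/chloride cotransporter gene kcc rose by 1.22 in LP and by 0.87 in HP (log2 fold change, SE 0.08 each). The kinase gene fray, which acts on such cotransporters, fell by 0.96 in LP and by 0.97 in HP (SE 0.09 each). NKCC, a sodium/potassium/chloride cotransporter gene, was picked out after its values were seen because its direction differed between the lines, so no p is given. It had 5.04 ± 0.370 CPM in LP diapause and 10.6 ± 0.454 CPM in LP age controls (−1.08, SE 0.18), against 35.2 ± 6.72 CPM in HP diapause and 13.6 ± 2.32 CPM in HP age controls (1.38, SE 0.16; SD, n = 3).

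Of 8 other P-type ATPases, 4 rose and 1 fell in LP, and 3 rose and 4 fell in HP, and with total counts as library sizes 2 rose and 4 fell in each line. SERCA, the calcium pump of the endoplasmic reticulum, rose by 0.74 in LP and by 0.68 in HP (SE 0.06 each), and the flippase gene ATP8B rose by 1.74 and by 1.23 (SE 0.13 each). Of 17 subunits of the proton-pumping V-ATPase, 13 rose and 1 fell in LP, and 8 rose and 1 fell in HP. Their medians were 0.228 in LP and 0.124 in HP, and turned to −0.000562 and −0.0219 with total counts as library sizes, under which 6 rose and 3 fell in LP and 3 rose and 7 fell in HP. Vha44 rose by 0.78 in LP and by 0.40 in HP (SE 0.05 each). The list of 14 sodium and potassium channels held gNacalpha by mistake, a nascent polypeptide complex gene that forms no channel. Of the other 13 genes, 10 rose and 1 fell in LP, and 7 rose and 0 fell in HP. With total counts as library sizes 8 rose and 1 fell in LP, and 6 rose and 0 fell in HP. The channel gene ppk29 had 9.05 ± 0.612 CPM in LP diapause and 5.46 ± 1.11 CPM in LP age controls (0.73, SE 0.15, adjusted p = 0.000246), and 8.37 ± 0.474 CPM in HP diapause and 3.12 ± 0.523 CPM in HP age controls (1.42, SE 0.16, adjusted p = 1.65e-07; SD, n = 3).

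Atpalpha and nrv2 act with the septate junction genes in epithelia. Leaving out aux, an endocytic gene listed by mistake, 7 rose and 10 fell of 19 in LP, and 5 rose and 8 fell in HP, with medians of −0.375 and −0.144. With total counts as library sizes 2 rose and 12 fell in LP, and 4 rose and 11 fell in HP. The list is mixed in kind: Fas3, an adhesion gene, rose by 1.15 in each line (SE 0.10 each), while l(2)gl fell by 0.93 in LP and by 0.94 in HP (SE 0.06 each). Of 6 gap junction genes, 4 rose and 0 fell in LP, and 5 rose and 0 fell in HP. With total counts as library sizes 4 rose and 1 fell in LP, and 5 rose and 1 fell in HP. The innexin gene Inx7 had 75.1 ± 3.99 CPM in LP diapause and 13.1 ± 2.23 CPM in LP age controls (2.52, SE 0.11, adjusted p = 4.79e-13), and 42.9 ± 2.69 CPM in HP diapause and 19.9 ± 2.60 CPM in HP age controls (1.11, SE 0.11, adjusted p = 3.36e-08; SD, n = 3).

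**Figure D5:**
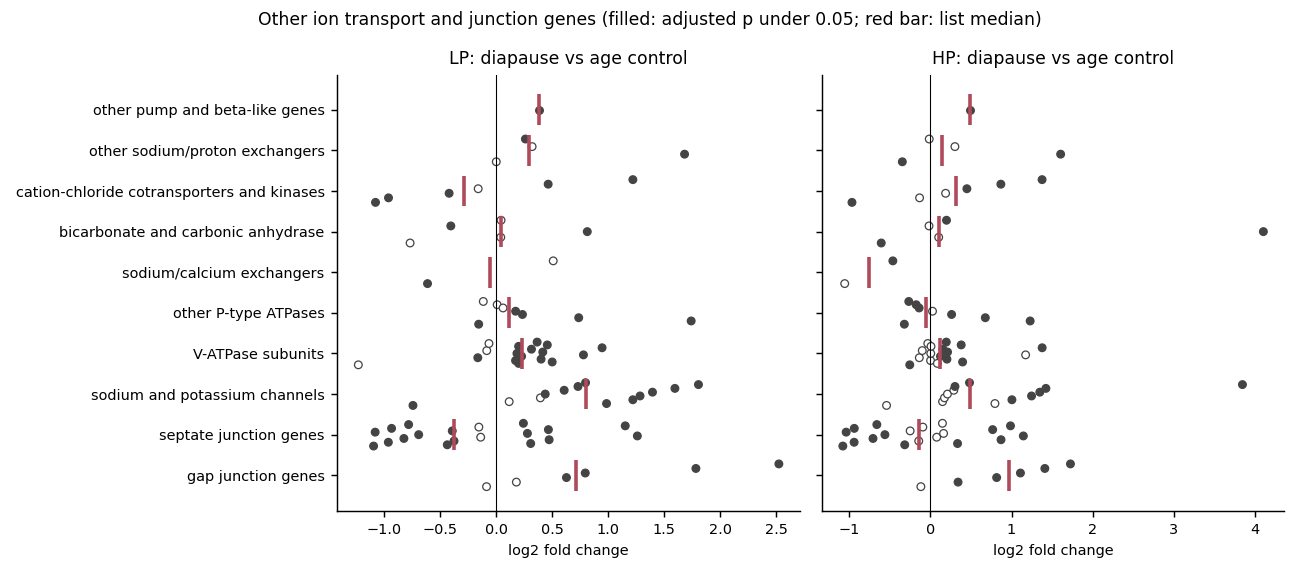
Log2 fold change of diapause against age control for the tested genes of the 10 lists of other ion transport and junction genes, without gNacalpha and aux, in LP (left) and HP (right); each point is a gene, filled where its adjusted p is under 0.05 in edgeR, the red bar is the list median, and each panel has its own axis. Channel and gap junction genes lie mostly right of 0 in both lines, and septate junction genes spread to both sides.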

How the data were processed

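The deposited table gives unscaled counts for each gene, all whole numbers, and the gene length in a column of its own, in the layout that featureCounts writes, per the file headers. Trimmomatic, STAR, featureCounts and DESeq2 appear in the submitters' processing notes. Not given in the sources used here are their roles, versions and settings, the genome build and the use of strand in counting. Libraries came from a directional poly-A kit, per the labels' protocols. Symbols were matched for 17556 of 17611 genes from Ensembl BDGP6.54, and 17540 had the same coordinates there. The 6 genes are identified by FlyBase symbol. No sequence is printed.

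Counts were scaled by TMM, filtered with filterByExpr and fitted in edgeR 4.0.16 with robust quasi-likelihood dispersions, under R 4.3.3 with limma 3.58.1. The fit had 1 mean per group over 18 libraries, no covariate and 12 residual degrees of freedom. The biological coefficient of variation was 0.0973. The steps were tested on simulated data. Total counts of 14352846 to 21343992 set the counting precision. The labels call the libraries biological replicates, without saying which animals they came from, so p-values measure the spread between these libraries. No 2 libraries held identical values.

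The genes and lists were chosen with earlier results of these data known. Besides the 6 genes, the text names the 3 genes most like each (prior count 2 for log2 CPM) and, per list, up to 2 called genes with the smallest adjusted p and at least 5 CPM. Alternatives were DESeq2 1.42.0, total counts as library sizes, no filter, a fit to the groups compared, a replicate block, TPM, and leaving out each library in turn.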

Additional observations from a re-analysis of the deposited data

Results flagged for a closer look

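The effect of 12 °C ovaries against age controls was compared between the lines by a test of the difference itself. This is the LP effect minus the HP effect on the log2 scale in edgeR. Among the genes named, with CAH2 and NKCC left aside, it was called for nrv2 and 5 list genes. List genes were named for small adjusted p-values within a line, and those values form part of this difference. The p-values of these list genes are therefore not independent of that choice. NKCC was picked for its directions, and no value of the difference is given for CAH2. Of the 5 bicarbonate and carbonic anhydrase genes tested, 1 was called higher and 1 lower for diapause. Over all genes that test called 18.4% for diapause and 16.6% for reproductive ovaries, and of the 83 list genes 13 higher and 12 lower for diapause. The nrv2 difference was −0.503 for diapause (adjusted p = 0.0462) and −0.737 for reproductive ovaries (adjusted p = 0.00476). In both, nrv2 was nearer to its age-control level in LP, whose age controls were already 1.19 above those of HP on the log2 scale. The diapause call was lost in 7 of the 12 fits that leave out a library (−0.58 to −0.38) and in the fit to the groups compared (adjusted p = 0.069), while the reproductive call held in 12 of 12 (highest adjusted p = 0.0185).

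In the lists, the diapause difference was 0.608 for the sodium/proton exchanger gene Nhe3 (adjusted p = 9.6e-06), whose sign differed between the lines. The LP rise of Nhe3 nearly vanished with total counts as library sizes, as given above, so its opposite direction in LP rests on the scaling. The diapause difference was 1.41 for the innexin gene Inx7 (adjusted p = 4.15e-06) and 0.382 for the V-ATPase gene Vha44 (adjusted p = 0.000882). It was 0.352 for kcc (adjusted p = 0.026), a call lost with total counts as library sizes (adjusted p = 0.1). It was −0.693 for the channel gene ppk29 (adjusted p = 0.0342), a call lost in 7 of the 12 fits without a library (−0.85 to −0.56).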

How the results depend on the processing

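Among 396 alternative values of the 6 genes within lines, which leave out TPM, 0 turned the sign of a called value. Of these, 382 stayed within the SD between libraries, and 12 of the others came from total counts as library sizes. Among 504 between lines, 11 turned sign, all in results that no test called with every library in: Nha1 between the lines in diapause (−0.07; −1.09 to 0.274 with a library left out) and in age controls (−0.04; −0.201 to 0.102, and 0.0457 with total counts), and the line differences of Atpalpha in diapause (0.07; −0.0181 to 0.134, and −0.0120 with total counts) and reproductive (−0.03; −0.0579 to 0.0361) and of nrv1 in reproductive against age control (−0.02; −0.0490 to 0.0281). In TPM, set against RPKM as ratios of group means, 12 within-line values stayed within that SD and 23 moved further. There 1 called value turned sign, nrv2 in LP diapause against age control (−0.10). For nrv1 in LP the means were 168 TPM in diapause and 298 TPM in age controls, against 106 and 143 RPKM. The size of such changes thus rests on the scaling. Atpalpha between the lines in the age controls passed the threshold with DESeq2 (adjusted p = 0.0478), total counts (0.0106) and the block (0.0492). Nha1 between the lines in reproductive ovaries, called at 0.0235, gave an adjusted p of 0.0575 without the filter.

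Counts of called genes moved by over 1.5 times only for diapause against reproductive. In LP, where edgeR called 131, DESeq2 called 447, the fit to the groups compared 290, and leaving out a library 6 (without diapause replicate 3) to 247 (without diapause replicate 2). In HP, where edgeR called 77, DESeq2 called 317, total counts 116, no filter 48, the fit to the groups compared 663, and leaving out a library 7 to 45. The line difference gave 6 with DESeq2 and 0 to 1 with a library left out. The cause was not tested. Total counts also moved the share of called genes that were higher, in diapause against age control to 36.0% in LP, against 50.9%, and to 38.6% in HP, against 49.5%. It moved that share to 35.4% in LP, against 50.1%, and to 39.3% in HP, against 49.3%, for reproductive against age control, to 13.4% in LP, against 23.7%, for diapause against reproductive, to 62.1%, against 47.6%, between the lines in age controls, and to 42.7%, against 60.5%, and 41.5%, against 58.4%, for the line differences in diapause and reproductive against age control.

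Same-numbered libraries of a line showed no strong shared deviation: 2 of 18 pairs passed a correlation of 0.1 (−0.137 to 0.164). The samples were therefore not treated as paired. These correlations cannot show whether such libraries were handled together, which the labels do not state. Pairs between the lines were not examined. The replicate block gave 110 calls in LP and 56 in HP for diapause against reproductive, 6494 and 6196 for diapause and 6085 and 5880 for reproductive against age control, 2951, 3179 and 3770 between lines in diapause, reproductive and age controls, and 1668, 1517 and 0 for line differences. Depth limits Nha1 in diapause (11 to 65 counts) and nrv3 in age controls (33 to 72).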
